A study of Danio rerio with 24 samples.

Results

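The genes described are 8 subunits of the COP9 signalosome of the zebrafish (Danio rerio): cops8, cops2, cops3, cops4, cops5, cops6, cops7a and gps1. They were found by NCBI Gene number (cops8 is 393198) and make up 8 of the 39974 genes in the deposited expression table. The set was chosen by the measured FPKM values of cops8, which scatter widely within groups, so the cops8 values are a description and carry no test. The other 7 subunits are called its partners.

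The COP9 signalosome is a protein complex that strips the small ubiquitin-like modifier NEDD8 from cullins, the scaffolds of cullin-RING ubiquitin ligases. Cycles of NEDD8 attachment and removal let these ligases exchange the adaptors that choose which proteins are tagged for the proteasome. In the complex, the product of cops5 is the metalloprotease that cleaves NEDD8 and that of cops6 is its catalytically inactive partner, both with an MPN domain, while gps1, cops2, cops3, cops4, cops7a and cops8 encode the subunits with a PCI domain that form the scaffold. These roles are best known from human, mouse, plant and yeast work.

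All larvae were wild type, of the AB strain, and were kept from 4 hours to 5 days after fertilization in dilute Danieau's solution that was renewed every day. Of the 6 groups, 2 received sodium arsenite (1 or 10 µM) and 2 the soluble uranium salt uranyl nitrate (30 or 300 µg/L). The mixture group received 1 µM arsenite and 30 µg/L uranyl nitrate together, and the vehicle group neither. Each group had 4 libraries of polyadenylated RNA, each from 10 pooled whole larvae. The labels do not say whether the pools came from separate clutches. The p-values therefore set group differences against the spread between these pools only, taken over all 6 groups together.

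Levels are in FPKM, fragments scaled to the length of the gene and the size of the library. Comparisons between genes rest on the lengths used, which were 3024 bases for cops8 and 602 to 2385 bases for the partners. Whole read numbers could be read back from the FPKM steps, and gave 15456854 to 22987080 reads per library. Of 25 markers of 8 somatic tissues, 23 were at 1 FPKM or more in all 24 libraries, and the exceptions were the red cell genes hbbe1.1, at 0 to 2.10 FPKM, and alas2, at 0.689 to 2.92 FPKM. In whole larvae, fewer cells of a type and less RNA per cell cannot be told apart.

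cops8 was near 7 FPKM in every vehicle library and below 1 FPKM in 9 of the 20 exposed libraries, and exposed libraries of the same group could lie on either side. In uranyl nitrate at 300 µg/L, cops8 was low in all 4 pools, at 0.245, 0.889, 0.260 and 0.380 FPKM. Its 4 values were 6.54, 5.40, 7.09 and 6.50 FPKM in the mixture, against 6.76, 8.07, 7.53 and 6.76 FPKM in vehicle. In each of these 3 groups all 4 pools lay on the same side of 1 FPKM, below it in the first and above it in the others. At 300 µg/L the highest pool still had 3.63 times the level of the lowest.

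The other 3 groups were split. In arsenite at 1 µM the pools had 5.65, 4.75, 0.273 and 5.46 FPKM, so that 1 of 4 was low. In arsenite at 10 µM they had 0.359, 0.794, 5.99 and 2.49 FPKM, which put 2 pools low, 1 high and 1 between. In uranyl nitrate at 30 µg/L they had 0.361, 8.26, 6.67 and 0.513 FPKM, with 2 pools low and 2 high.

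**Figure D1:**
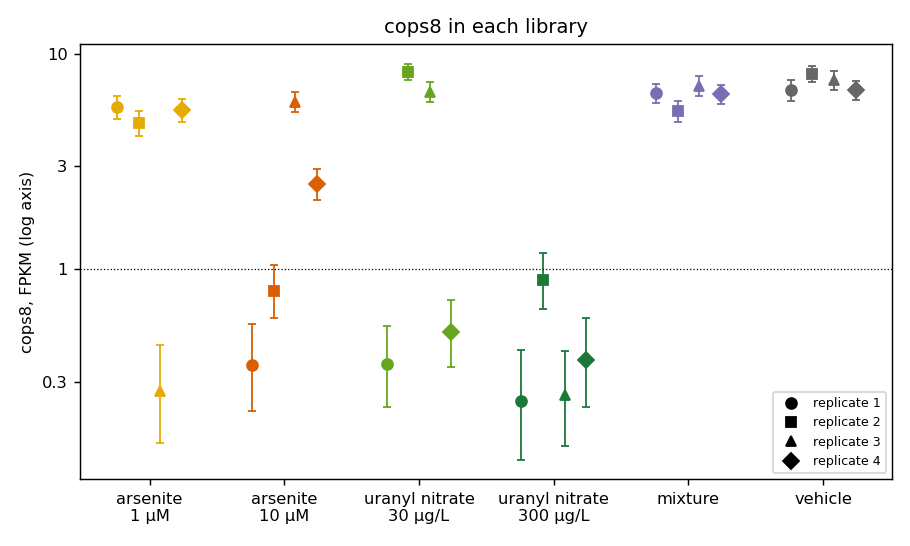
cops8 level in FPKM (log axis) in each of the 24 libraries, by group, with exact Poisson intervals from the recovered reads that cover counting error only. The low libraries lie at 0.245 to 0.889 FPKM and the high ones at 4.75 to 8.26 FPKM, with a single library at 2.49 FPKM between them.

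Read numbers behind these levels were far apart as well. The 9 low libraries held 13 to 52 cops8 reads each, and the 14 libraries at 4 FPKM or more held 223 to 561. The library between them, replicate 4 of arsenite at 10 µM, held 145 reads, with a 95% exact Poisson interval of 2.10 to 2.93 FPKM. The interval of the highest low library, replicate 2 of uranyl nitrate at 300 µg/L, was 0.651 to 1.19 FPKM, and that of the lowest high library, replicate 2 of arsenite at 1 µM, was 4.15 to 5.42 FPKM. These intervals do not overlap and cover counting error only. The limit of 4 FPKM was set after the values were seen.

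The mean cops8 level was 4.03 ± 2.54 FPKM with 1 µM arsenite and 2.41 ± 2.56 FPKM with 10 µM arsenite (SD, n = 4 each, as for the next values). It was 3.95 ± 4.11 FPKM with 30 µg/L uranyl nitrate, 0.444 ± 0.303 FPKM with 300 µg/L and 6.38 ± 0.708 FPKM with the mixture, against 7.28 ± 0.640 FPKM with vehicle. In 2 of the split groups, 10 µM arsenite and 30 µg/L uranyl nitrate, the SD exceeded the mean. The mean with 30 µg/L fell between its low and its high pools and describes none of them well. With 10 µM arsenite the mean was near a single pool, at 2.49 FPKM. On the log2(FPKM + 1) scale, which understates changes of low genes, the difference from vehicle was -0.97 for 1 µM and -1.57 for 10 µM arsenite. It was -1.25 for 30 µg/L and -2.54 for 300 µg/L uranyl nitrate, and -0.17 for the mixture. All 4 pools lay below all 4 vehicle pools in both arsenite groups and in the 300 µg/L uranyl nitrate group. Such a lack of overlap, in either direction, was seen in 3.66% of all 22682 genes tested for 1 µM arsenite, 6.13% for 10 µM arsenite and 9.75% for 300 µg/L uranyl nitrate. The mixture, which holds the lower dose of both agents, differed by 0.80 from arsenite at 1 µM and by 1.08 from uranyl nitrate at 30 µg/L. The high pools of those single-agent groups, at 4.75 to 8.26 FPKM, spanned the mixture's range of 5.40 to 7.09 FPKM, and the low pools lay under it.

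The highest pool of a group had 20.7 times the cops8 level of the lowest with 1 µM arsenite and 16.7 times with 10 µM arsenite. The ratio was 22.9 with 30 µg/L and 3.63 with 300 µg/L uranyl nitrate, 1.31 in the mixture and 1.19 in vehicle. Among the 7 partners no group had a ratio above 1.32. Within every group but the mixture and vehicle, then, the cops8 ratio was larger than that of any partner in any group. With 300 µg/L uranyl nitrate it rests on 13 to 46 cops8 reads per library, against 303 to 1355 for the partners. Counting error there is large beside a ratio of 1.32. The Poisson interval of the lowest pool, 0.131 to 0.419 FPKM, overlapped that of the pool at 0.380 FPKM, 0.229 to 0.593 FPKM. It did not overlap that of the highest pool, 0.651 to 1.19 FPKM.

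The partners were steady and more abundant. cops6 was the highest of them, at 35.3 FPKM over the 24 libraries (SD 3.50, range 30.0 to 41.6). The scaffold genes cops4, cops3, cops2 and gps1 followed at 32.8, 28.9, 27.7 and 25.9 FPKM, with SDs of 1.85, 1.43, 1.24 and 1.25 in the same order. The catalytic subunit gene cops5 stood at 19.3 FPKM (SD 1.87, range 15.7 to 22.5) and cops7a at 14.1 FPKM (SD 0.953, range 12.6 to 15.8). cops8 came last, at 4.08 FPKM (SD 3.09, range 0.245 to 8.26). Neighbours in this order had overlapping ranges, except gps1 over cops5 and cops7a over cops8. cops9, a small subunit outside the 8 genes, was at 42.5 FPKM (SD 3.59, range 36.6 to 49.7).

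**Figure D2:**
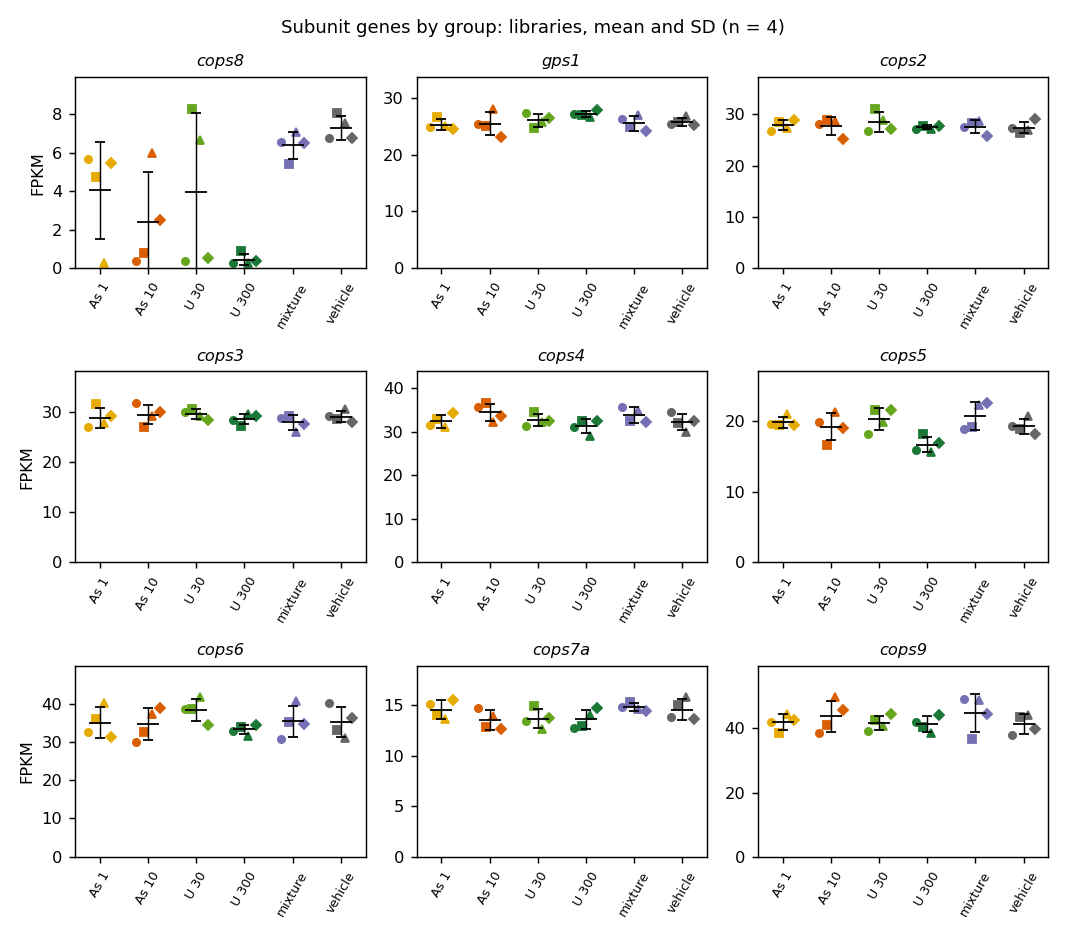
Level of each of the 8 subunit genes and cops9 in FPKM (linear axes from 0) in the single libraries of each group, with the group mean and SD (bars that would pass below 0 end there). Partner values cover 12.6 to 41.6 FPKM and stay close together within each gene, while cops8 covers 0.245 to 8.26 FPKM.

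The spread between pools of a group was taken as the pooled within-group SD of log2(FPKM + 1). It was 0.89 for cops8, a value that 144 of the 22682 genes tested (0.635%) equalled or exceeded. That number was 240 without replicate 3 of the 1 µM arsenite group and 446 with a pseudocount of 0.1 FPKM in place of 1. Partners had SDs between 0.0657 (gps1) and 0.14 (cops6), against a median of 0.138 over all genes. Of the 7 partners, 6 lay below that median and cops6 just above it. The cops8 value was 6.35 times that of cops6. By group, the cops8 SD was 1.15 with 1 µM and 1.06 with 10 µM arsenite, 1.48 with 30 µg/L and 0.281 with 300 µg/L uranyl nitrate, and 0.143 with the mixture, against 0.111 with vehicle. The log2(FPKM + 1) scale compresses differences at low levels, and all pools with 300 µg/L uranyl nitrate were below 1 FPKM.

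**Figure D3:**
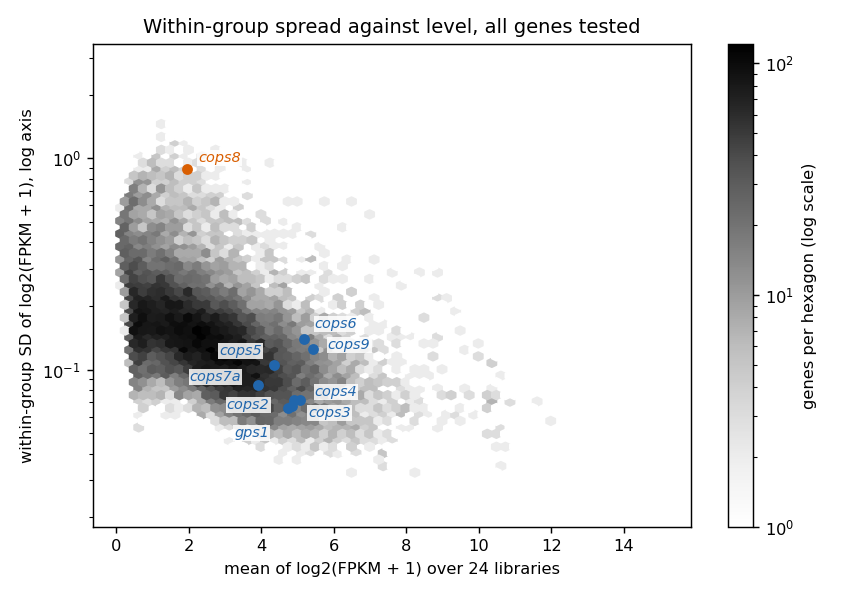
Within-group SD of log2(FPKM + 1) (log axis) against the mean level over 24 libraries, for all 22682 genes tested (grey hexagons) and for the COP9 subunit genes (points). cops8 lies at 0.89, and the partners between 0.0657 and 0.14.

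Partners had 303 to 1355 reads in each library, a range that overlaps the 223 to 561 reads of cops8 in its high libraries. Genes with a spread larger than that of cops8 came from several kinds of product. The 5 with the largest SD, named after their values were seen, were rpl39, a ribosomal protein gene, at 8.32 to 822 FPKM (SD 2.74), the lens crystallin genes crybb1, at 1.88 to 543 FPKM (SD 2.25), and crybb1l1, at 2.90 to 366 FPKM (SD 1.99), ndufb5, of respiratory complex I, at 0.803 to 59.6 FPKM (SD 1.99), and hint1, at 0.215 to 27.6 FPKM (SD 1.96).

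Levels of the partners were set beside those of cops8 separately in its high and its low libraries, because a correlation over both would restate the split. The libraries of each band come from several groups, and group means were not removed. The bands were cut on cops8 itself, so the correlations are descriptions with no test. In the 14 libraries at 4 FPKM or more, Pearson's r with cops8 ran from -0.10 (cops3) to 0.25 (cops5) over the 7 partners, and Spearman's rho from -0.10 (cops3) to 0.23 (cops6). Without the 2 libraries farthest from the median of cops8, the r of cops5 was 0.08 and the range over the partners was -0.33 (cops2) to 0.36 (gps1).

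In the 9 libraries under 1 FPKM the range of r was wider, at -0.57 (cops3) to 0.59 (cops2), and rho ran from -0.42 (cops3) to 0.67 (cops4). Without the 2 farthest libraries r was 0.06 for cops2, 0.14 for cops3, 0.51 for cops4 (against 0.56 with them) and 0.58 for cops5 (against 0.05 with them). For cops7a it was 0.34 (against -0.42 with them). The r of cops2, cops3, cops5 and cops7a thus moved widely with 2 libraries, and each low library held only 13 to 52 cops8 reads. Of the 9 low libraries, 4 were those with 300 µg/L uranyl nitrate, where cops5 was at 15.7 to 18.1 FPKM. These values of r therefore hold differences between groups as well as between pools.

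Genes whose deviations from their group means ran most like those of cops8 over the 24 libraries were ranked by Spearman's rho among 18484 genes with a mean of 1 FPKM or more. The most alike were b3gnt5b, encoding a glycosyltransferase (rho 0.758), slc29a4b, of the equilibrative nucleoside transporter family (0.710), and oxsm, of mitochondrial fatty acid synthesis (0.677). The most opposed were clstn2a, a calsyntenin gene (-0.790), tmem187 (-0.704) and xylt2, a xylosyltransferase gene (-0.696). These are descriptions of the same libraries, with no p. They are the extremes of 18484 genes, and whether they exceed what so many genes give by chance was not tested. Unlike the correlations of the partners above, the ranking took the low and the high cops8 libraries together. No partner was among the genes named, which says little of the partners, since so few of the ranked genes are named.

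In the RefSeq table of another assembly, GRCz12tu, the 3 entries on one side of cops8 include asb18 and fam124a, and those on the other are trim63b, col6a3 and mlphb. Of these 5 genes, 3 were tested, and their deviations from the group means had a rho of -0.159 to -0.103 with those of cops8. fam124a was at 1.45 to 2.51 FPKM (rho with cops8 -0.149), col6a3 at 0.628 to 1.89 FPKM (rho -0.159) and mlphb at 0.0260 to 1.88 FPKM (rho -0.103). mlphb also scattered within groups. Its highest pool had 3.29 times the level of the lowest with 10 µM arsenite and 37.7 times with 300 µg/L uranyl nitrate, the latter on 1 to 48 reads. trim63b, at 0.0189 to 0.425 FPKM, and asb18, at 0.0344 to 0.687 FPKM, were too low to be tested. The trim63b gene lies within the span of cops8 in that table, and how reads in overlapping genes were assigned is not given in the sources used here.

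rpe, an enzyme gene of the pentose phosphate pathway 5 places from cops8 in that table, was examined after its values were seen because it also scattered within groups, at 0.246 to 5.54 FPKM. Its high libraries were partly others than those of cops8. Both genes were under 1 FPKM in 7 libraries and both at 1 FPKM or more in 5, while rpe alone reached 1 FPKM in 2 and cops8 alone in 10. With vehicle, where cops8 was high in all pools, rpe was under 1 FPKM in all, at 0.265, 0.300, 0.530 and 0.555 FPKM.

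Differences of the partners between groups were tested with limma on log2(FPKM + 1) over all 22682 genes, and a gene was called at a Benjamini-Hochberg adjusted p under 0.05. Against vehicle, no partner was called in any exposure: 0 of 35 partner and exposure pairs passed, and 1 had an unadjusted p under 0.05. Their log2 differences ran from -0.20 to 0.13, with SEs of 0.0495 to 0.0942. The share of all genes called in these comparisons was 0.132% for 1 µM arsenite, 0.727% for 10 µM arsenite, 0% for 30 µg/L uranyl nitrate, 1.77% for 300 µg/L uranyl nitrate and 0.406% for the mixture, so few calls would fall among 7 genes at these rates. The comparison of uranyl nitrate at 30 µg/L with vehicle had 0 called genes in limma and 1620 with an unadjusted p under 0.05.

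The median log2 difference over the partners was 0.00 for 1 µM arsenite (-0.01 over all genes), -0.01 for 10 µM arsenite (0.01 over all genes), 0.02 for 30 µg/L uranyl nitrate (0.00 over all genes), -0.04 for 300 µg/L uranyl nitrate (-0.00 over all genes) and 0.01 for the mixture (-0.02 over all genes). These 5 comparisons share the vehicle libraries. No partner was called in the arsenite dose comparison or in the mixture against either single agent (0 of 7 in each). The same held for the departure of the mixture from additivity. Those comparisons called 0.176%, 0.00441%, 0.238% and 0.0353% of all genes, with the mixture set first against arsenite and then against uranyl nitrate. At these rates hardly any call would fall among 7 genes.

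The dose comparison of uranyl nitrate gave the 1 call among the partners. cops5, the gene of the catalytic subunit, had 16.0, 18.1, 15.7 and 16.9 FPKM at 300 µg/L, against 18.2, 21.5, 19.9 and 21.6 FPKM at 30 µg/L. All pools at 300 µg/L lay below all pools at 30 µg/L, though the nearest pair, 18.1 and 18.2 FPKM, almost touched. cops5 averaged 16.7 FPKM at 300 µg/L and 20.3 FPKM at 30 µg/L (n = 4 each), a log2 difference of -0.27 (SE 0.0729, limma adjusted p = 0.0312). In this comparison 6.65% of all genes were called and 14.7% had groups that did not overlap, so 1 call among 7 partners is not far from the background. The call was lost, with adjusted p between 0.0673 and 0.0957, when replicate 2, 3 or 4 at 30 µg/L or replicate 1, 3 or 4 at 300 µg/L was left out, and kept when either of the other two was.

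Against vehicle, at 19.3, 18.9, 20.7 and 18.2 FPKM, cops5 at 300 µg/L was also below in all pools. In this comparison 9.75% of all genes had groups that did not overlap, so 1 such gene among 7 partners is not far from the background. The log2 difference of cops5, at -0.20 (SE 0.0729), did not pass (limma unadjusted p = 0.0121, adjusted p = 0.156). In the other groups cops5 was at 19.4 to 21.1 FPKM with 1 µM arsenite, 16.7 to 21.4 FPKM with 10 µM arsenite and 18.9 to 22.5 FPKM with the mixture.

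cops6, whose product pairs with that of cops5, had 33.0, 33.9, 31.6 and 34.4 FPKM in uranyl nitrate at 300 µg/L, against 38.7, 38.6, 41.6 and 34.5 FPKM at 30 µg/L. The groups did not overlap, though the nearest pair, 34.4 and 34.5 FPKM, almost touched. The Poisson intervals of that pair, 30.9 to 38.3 and 31.4 to 37.9 FPKM, overlapped. In this comparison 14.7% of all genes had no overlap. The vehicle pools, at 31.1 to 40.1 FPKM, spanned all cops6 values at 300 µg/L. The difference between the doses, of -0.20 (SE 0.0942), did not pass (limma adjusted p = 0.230). For the scaffold partners gps1, cops2, cops3, cops4 and cops7a the differences between the uranyl nitrate doses were 0.06, -0.05, -0.05, -0.06 and -0.01 in that order, none called. The partners' median was -0.05, against -0.00 over all genes. cops8 differed by -1.29 between these doses, with overlapping groups, since 2 of the pools at 30 µg/L were themselves low.

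**Figure D4:**
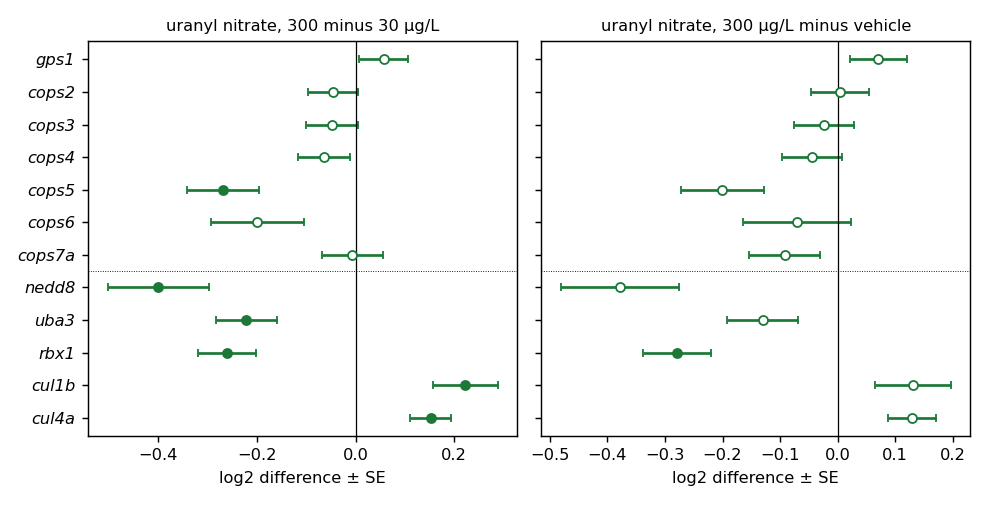
Log2 difference with its SE, in uranyl nitrate at 300 µg/L minus 30 µg/L (left) and minus vehicle (right). The 7 partners are above the dotted line. Below it are the genes of the NEDD8 and cullin-RING lists that were called between these doses. Filled points passed at an adjusted p under 0.05. On the left these are cops5 (at -0.27), nedd8, uba3, rbx1, cul1b and cul4a, and on the right rbx1 alone.

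Genes that act on the same pathway were taken from lists. Of the NEDD8 cycle (genes for NEDD8, its activating and conjugating enzymes, and its removal and exchange factors), 13 of 14 genes were tested. They held calls in the uranyl nitrate dose comparison alone, with 0 higher and 2 lower, where 2.63% of all genes were called higher and 4.03% lower. nedd8, encoding the modifier itself, had 18.0, 21.3, 20.4 and 20.7 FPKM at 300 µg/L, against 23.3 to 31.6 FPKM (mean 27.0, SD 3.61, n = 4) at 30 µg/L. All its pools at 300 µg/L lay below all those at 30 µg/L, with a log2 difference of -0.40 (SE 0.103, limma adjusted p = 0.0241). Against vehicle, at 26.5 ± 2.87 FPKM (SD, n = 4), the difference for nedd8 was -0.38 without overlap, and it did not pass (limma adjusted p = 0.0604). A lack of overlap was seen in 14.7% of all genes between the doses and in 9.75% against vehicle. uba3, the catalytic subunit of the NEDD8-activating enzyme, averaged 8.78 ± 0.513 FPKM at 300 µg/L and 10.4 ± 0.812 FPKM at 30 µg/L (SD, n = 4 each), a log2 difference of -0.22 (SE 0.0620, limma adjusted p = 0.0358). The nedd8 call was lost without replicate 2 or 4 at 30 µg/L or replicate 1 or 4 at 300 µg/L (adjusted p 0.0553 to 0.0881). The uba3 call was lost without any 1 of the 8 libraries other than replicate 4 at 30 µg/L (adjusted p up to 0.109), and with the 2 groups fitted alone (0.0858).

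Of the cullin-RING ligase genes (cullins, RING subunits and adaptors), 33 of 35 were tested. Between the uranyl nitrate doses 2 were higher and 1 lower, beside 2.63% of all genes called higher and 4.03% called lower, so these counts are near the background. rbx1, the RING subunit that carries the ubiquitin-conjugating enzyme, had 56.1, 53.6, 56.2 and 51.7 FPKM at 300 µg/L, a mean of 54.4 ± 2.16, against 65.4 ± 4.55 FPKM at 30 µg/L (SD, n = 4 each). Its log2 difference was -0.26 (SE 0.0595, limma adjusted p = 0.0144). It also fell relative to vehicle, at 69.3, 63.1, 65.2 and 67.3 FPKM, by a log2 difference of -0.28 (limma adjusted p = 0.0219), the 1 call of the list in that comparison, where 0.895% of all genes were called lower. All 4 rbx1 values at 300 µg/L were thus under those of both other groups. A lack of overlap was seen in 14.7% of all genes between the doses and in 9.75% against vehicle. rbx1 at 300 µg/L overlapped both arsenite groups, at 55.6 to 65.6 FPKM with 1 µM and 53.8 to 63.7 FPKM with 10 µM. Its dose call was lost without replicate 4 of either dose (adjusted p up to 0.0544), and its vehicle call without replicate 2 or 4 at 300 µg/L or replicate 1, 3 or 4 of vehicle (up to 0.0825).

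The cullin scaffold genes cul1b and cul4a were higher at 300 µg/L than at 30 µg/L, and neither was called against vehicle. In vehicle cul1b was at 15.0 to 16.0 FPKM, above all pools at 30 µg/L and below all pools at 300 µg/L. A lack of overlap was seen in 9.75% of all genes between 300 µg/L and vehicle and in 14.7% between the doses. The share between 30 µg/L and vehicle was not taken. cul4a in vehicle was at 25.4 to 28.6 FPKM and overlapped both doses. cul1b averaged 16.9 ± 0.722 FPKM at 300 µg/L and 14.3 ± 0.358 FPKM at 30 µg/L (SD, n = 4 each; log2 difference 0.22, SE 0.0659, limma adjusted p = 0.0455). cul4a averaged 29.5 ± 1.22 FPKM at 300 µg/L and 26.4 ± 0.885 FPKM at 30 µg/L (SD, n = 4 each; log2 difference 0.15, SE 0.0414, limma adjusted p = 0.0314). The cul1b call was lost without any 1 of the 8 libraries (adjusted p 0.0523 to 0.123). The cul4a call was kept without replicate 2 at 30 µg/L or replicate 3 at 300 µg/L and lost without any other (up to 0.0865).

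In arsenite at 10 µM the 1 call of the cullin-RING list was keap1a, whose product is the adaptor that presents the antioxidant regulator NRF2 to a cullin. keap1a had 15.7, 20.2, 18.8 and 17.1 FPKM in arsenite at 10 µM, against 13.2, 11.9, 14.1 and 12.8 FPKM in vehicle. All its pools with arsenite lay above all vehicle pools, with a log2 difference of 0.43 (SE 0.0725, limma adjusted p = 0.00279). In this comparison 0.595% of all genes were called higher and 6.13% had groups that did not overlap. The call was kept in each of the 8 fits without 1 library, and was lost with the 2 groups fitted alone (adjusted p = 0.105).

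The proteasome lid and the initiation factor eIF3 are complexes built from MPN and PCI subunits like the signalosome. None of 9 lid genes and none of 8 tested eIF3 genes (of 10 listed) was called in any of the 10 comparisons. These called from 0% of all genes (30 µg/L uranyl nitrate against vehicle) to 6.65% (between its doses). At such rates few calls would fall among 9 or 8 genes. For the lid the median log2 difference of uranyl nitrate at 300 µg/L was -0.08 from 30 µg/L and -0.09 from vehicle, against -0.00 over all genes in both. At an unadjusted p under 0.05 stood 3 lid genes and 1 eIF3 gene in each of these comparisons, where 4746 of all 22682 genes did so between the doses and 3754 against vehicle.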

How the data were processed

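Per the labels' protocols, poly(A) RNA was sequenced from 24 pools of 10 larvae. The authors deposited 1 table of FPKM values; the submitters' processing notes list HISAT2 2.1.0, HTSeq 0.6.1, DESeq2 1.10.1 and GRCz11 without roles, and the annotation and strand setting are not given in the sources used here. Reads were recovered from the FPKM steps, with each gene's step chosen so that its values were whole within 0.005 reads. All values above 0 (100%) were thus whole by construction. Library factors and read sums differed by a relative 1.51e-06 at most, and 99.2% of gene lengths came out whole within 0.05 bases. Poisson intervals cover counting error only. Symbols came from a RefSeq table (GRCz12tu). Genes with 0.5 FPKM or more in at least 4 libraries (22682, with all 8 members) were fitted on log2(FPKM + 1) with limma 3.58.1 in R 4.3.3, with 6 group means, a variance trend and 18 residual degrees of freedom, and two-sided p-values adjusted within each contrast. The fits were tested on simulated data. The members and lists were chosen with earlier results of these data known. Named list genes were those called. Same-numbered libraries were not paired: over 60 pairs their deviations correlated at -0.155 to 0.107. cops7b, ube2m, cul7, btrc, eif3a and eif3la were not analysed here. No genome or sequence table was used.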

Additional observations from a re-analysis of the deposited data

Results flagged for a closer look

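In the arsenite group at 1 µM, replicate 3 stood apart from the other 3 libraries for 2 of the 8 genes. It was the lowest for cops8, at 0.273 FPKM, with a gap to the next library of 0.834 of the group's range. It was the highest for cops5, at 21.1 FPKM, with a gap of 0.922 of the range. Its Poisson interval for cops5, 19.3 to 22.9 FPKM, overlapped that of replicate 1, the next library, 17.7 to 21.5 FPKM. The values of cops8 chose the gene set, so the cops8 gap is a description and not a test. Of 48 combinations of gene and group, 2 had an end value so far from the other 3, and chance gives such a gap in about 1 in 20. The 48 include those of cops8, so this count is not a test either.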

How the results depend on the processing

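The single partner call, cops5 between the uranyl nitrate doses, depended on single libraries: leaving out 1 library gave 0 to 1 called partners. With the replicate number as a block, 1 partner was called and cops5 had an adjusted p of 0.0329, while cul1b was lost (0.0582). cul1b was also lost with no filter on low values (0.0583) and no variance trend (0.0583), and cul4a with the 2 groups fitted alone (0.0762) and no trend (0.0525). A pseudocount of 0.1 FPKM raised the within-group SD of cops8 to 1.41, which 446 genes equalled or exceeded, and its log2 difference between uranyl nitrate at 300 µg/L and vehicle to -3.90. The SD was 0.777 to 0.915 without 1 library. With a limit of 0.5 or 2 FPKM, 6 or 9 libraries counted as low in cops8. No called difference changed direction in any alternative run. Among all genes, 1509 were called between the uranyl nitrate doses (465 to 1354 without 1 library) and 402 for uranyl nitrate at 300 µg/L against vehicle (63 to 769 without 1 library, 96 with the 2 groups fitted alone). The low cops8 values rest on 13 to 52 reads each.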
